A study of Mus musculus with 2 samples.

Results

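CpG-poor promoters of protein-coding genes are the class of gene starts with few CpG dinucleotides around them, and they were described here in mouse myotubes treated with a control siRNA (siCon) or an siRNA that targets H19, a long non-coding RNA (siH19). A promoter was the 2001 bp window centred on the 5' end of an autosomal protein-coding gene. It was CpG-poor when the ratio of CpGs present to CpGs that its C and G content predicts stayed below 0.48 in every 500 bp stretch of the window. The class was thus set by the genome sequence alone and no methylation value entered it, although it was chosen with earlier results of these data known. The mouse genome (GRCm38, GENCODE M21 genes) held 6781 such starts among 20788. Of these, 918 had at least 3 CpG cytosines with 5 or more reads in both libraries and outside the restriction sites, and these 918 promoters (of 13762 measured in all classes) are the subject of this report. The other 5863 had too few such cytosines. The measured share was 13.5% for CpG-poor starts, 75.4% for starts of intermediate CpG content and 97.9% for CpG-rich starts, where CpG-rich meant a 500 bp stretch with a ratio over 0.75 and at least 55% GC. Measured members were the denser part of their class, with a median of 29 CpGs in the window against 15 over all CpG-poor starts.

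The assay was reduced representation bisulfite sequencing, which cuts DNA at CCGG (MspI) and TCGA (TaqαI), keeps short fragments and reads unmethylated cytosine as T after bisulfite conversion. The cells were C3H mouse myoblasts, a muscle precursor cell line, that had been differentiated into myotubes, the multinucleate fibre-like cells of muscle culture, and genomic DNA was taken 48 h after transfection. There was 1 siCon library and 1 siH19 library, both from the same cell line and protocol, so no value has an error between cultures, a p-value below compares 2 libraries and not 2 conditions, and culture and siRNA cannot be told apart. No RNA was measured in these 2 libraries, so neither the loss of H19 nor the muscle identity of the cells was checked with them. The libraries held 104999613 (siCon) and 106372792 (siH19) reads summed over cytosines. In the 918 promoters, 6506 distinct cytosines of 3778 CpGs were compared, with a median of 23 (siCon) and 21 (siH19) reads each. A promoter held a median of 6 cytosines (range 3 to 35) and a median of 150 and 136 reads summed over them. Neighbouring cytosines often lie on the same reads, so these sums count some molecules more than once, and all intervals cover counting error only.

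Methylation of CpG cytosines is the mark that DNA methyltransferases copy after replication, and in mammals most CpGs outside CpG islands carry it. Methylated CpGs mutate readily and are lost over evolution, which is the textbook account of why promoters that are methylated in the germ line are poor in CpG. Many genes with such promoters, such as those of contractile proteins, keratins, odorant receptors, leukocyte receptors and liver enzymes, are expressed in few tissues, and loss of methylation at such a promoter often accompanies expression.

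The sequences of 7 members show what a CpG-poor promoter offers to the assay. Each is given 5' to 3' on the gene's strand from GRCm38, in lower case with the measured CpGs in capitals, and CpGs in lower case either lay in a restriction site or had too few reads. The first 4 are upstream stretches of muscle genes with low levels. The stretch of Acta1, the gene of skeletal muscle alpha-actin, is chr8:123894792-123894915, that of Ldb3, which encodes a Z-disc protein, is chr14:34588689-34588754, that of Lmod3, which encodes an actin filament nucleator, is chr6:97252925-97253170, and that of Hfe2, which encodes hemojuvelin, is chr3:96524595-96524739. Otof (chr5:30461966-30462139, upstream), which encodes a protein of hair cell synapses, and Gm10135 (chr5:72974772-72974834, upstream), a predicted gene, are shown for the bottom and the top of the range of levels. Rtp2 (chr16:23931644-23931827, intron), which encodes a protein that carries odorant receptors to the cell surface, is shown for its difference between the libraries.
Acta1: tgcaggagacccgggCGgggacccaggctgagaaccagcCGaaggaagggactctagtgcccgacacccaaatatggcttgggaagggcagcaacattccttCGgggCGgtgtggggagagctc
Ldb3: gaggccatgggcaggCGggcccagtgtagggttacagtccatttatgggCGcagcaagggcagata
Lmod3: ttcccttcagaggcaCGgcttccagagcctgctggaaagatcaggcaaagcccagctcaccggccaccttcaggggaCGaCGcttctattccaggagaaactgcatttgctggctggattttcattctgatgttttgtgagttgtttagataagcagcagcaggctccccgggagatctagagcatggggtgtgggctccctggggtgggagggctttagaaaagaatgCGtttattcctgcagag
Hfe2: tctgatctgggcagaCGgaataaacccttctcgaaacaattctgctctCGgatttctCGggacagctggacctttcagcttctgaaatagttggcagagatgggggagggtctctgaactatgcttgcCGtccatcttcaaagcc
Otof: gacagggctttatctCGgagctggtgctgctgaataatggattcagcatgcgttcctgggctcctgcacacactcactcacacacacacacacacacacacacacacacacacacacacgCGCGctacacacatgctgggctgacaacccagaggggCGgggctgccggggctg
Gm10135: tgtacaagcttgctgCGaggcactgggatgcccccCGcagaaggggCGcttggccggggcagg
Rtp2: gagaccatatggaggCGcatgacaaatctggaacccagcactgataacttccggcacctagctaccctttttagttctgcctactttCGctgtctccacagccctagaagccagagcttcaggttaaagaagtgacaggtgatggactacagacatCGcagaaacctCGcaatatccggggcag

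Every level from the lowest to the highest was found among the CpG-poor promoters. The level of a promoter is the mean of the levels of its cytosines. Over the 918 members it averaged 44.8% in siCon (SD between promoters 29.8) and 45.2% in siH19 (SD 29.8), with medians of 45.4% and 46.0%. The middle part of the members, between the quartiles, ran from 17.7% to 70.2% in siCon and from 17.95% to 69.8% in siH19. In siCon 248 promoters (27.0%) were below 20%, 513 (55.9%) lay between 20% and 80% and 157 (17.1%) were above 80%. In siH19 the counts were 246, 514 and 158. Below 20% in both libraries were 231 members, and above 80% in both were 135. The restriction sites, left out by the class rule, read differently: the 5969 site cytosines of the members averaged 65.5% in siCon, and those of the 231 low members 53.5%. With them kept, 1.59% of 1819 promoters were below 20%, and their part in the levels was not tested.

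**Figure D1:**
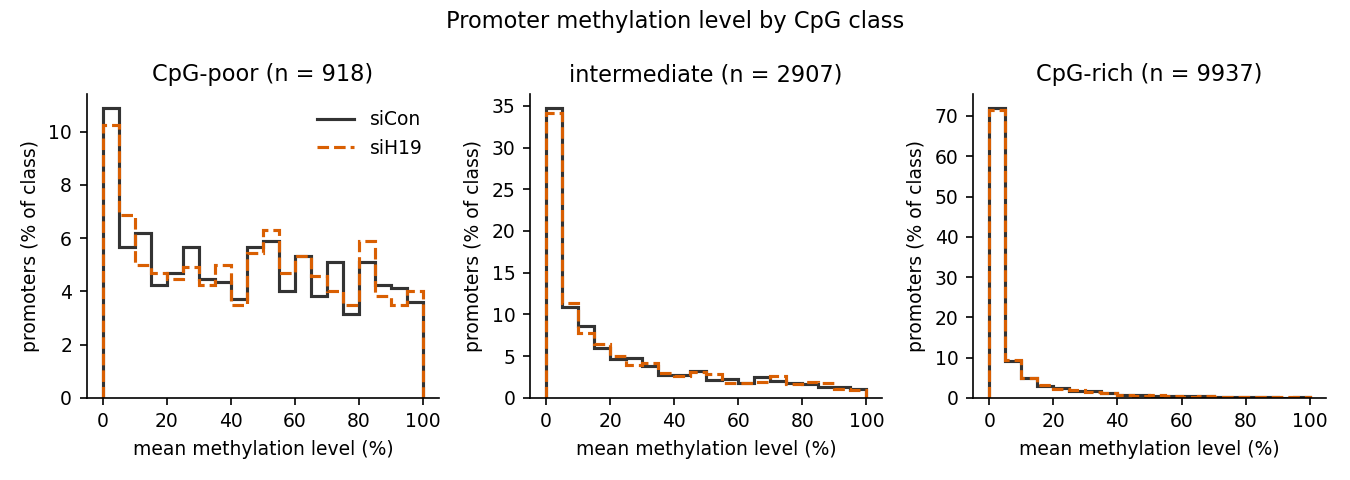
Promoter methylation level in steps of 5 percentage points (x axis) against the share of promoters in that class (y axis, on a different scale in each panel), for siCon (solid) and siH19 (dashed). The 918 CpG-poor promoters spread over the whole range with a peak below 5%, whereas 60.2% of the intermediate and 89.0% of the CpG-rich promoters were below 20% in siCon.

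The other classes were lower. Intermediate promoters averaged 23.7% in siCon and 23.8% in siH19, with medians of 12.6% and 12.3%, and CpG-rich promoters averaged 7.16% and 7.30%, with medians of 1.49% and 1.54%. Promoters above 80% made up 5.44% of the intermediate and 0.624% of the CpG-rich class in siCon. The edge of the class was not a step in the levels. The 113 members whose highest ratio was 0.46 to 0.48 averaged 43.4% in siCon and 44.3% in siH19, and the 121 promoters just outside, at 0.48 to 0.50, averaged 39.1% and 39.2%. Within the members the highest ratio and the siCon level were hardly related (Pearson r = -0.04 and Spearman rho = -0.05 over 918 promoters, which share a genome and a library).

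The cytosines of a promoter could differ widely in level. Among all 6506 cytosines, 37.3% were below 20% in siCon, 37.1% between 20% and 80%, and 25.6% above 80%. In the 525 members whose level averaged over both libraries was 20% to 80%, 24.4% of the cytosines were still below 20%, 23.2% were above 80% and 52.4% lay between. Of these 525 promoters, 201 (38.3%) held at least 1 cytosine below 20% together with 1 above 80%. The SD between the cytosines of 1 promoter had a median of 18.3 percentage points over the members.

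Part of that spread followed the distance from the transcription start. In siCon the mean cytosine level was lowest in the 100 bp just upstream of the start, 34.8% over 538 cytosines, and 38.7% over 741 cytosines in the 100 bp downstream. It was highest from -700 to -600 bp, at 60.8% over 131 cytosines. Over all members, cytosines within 200 bp of the start averaged 38.2% in siCon and 38.3% in siH19, and those more than 500 bp away 48.9% and 49.3%, a difference of -10.7 points in siCon. The 500 to 1000 bp upstream averaged 54.2% in siCon and the 500 to 1000 bp downstream 45.9%. In the 139 promoters with measured cytosines in both zones, the near zone averaged 42.2% and the far zone 51.5% in siCon, and 42.9% and 50.8% in siH19. The near zone was the lower one in 86 of the 139 in siCon and the higher one in 51. The dip near the start was thus common but not general.

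**Figure D2:**
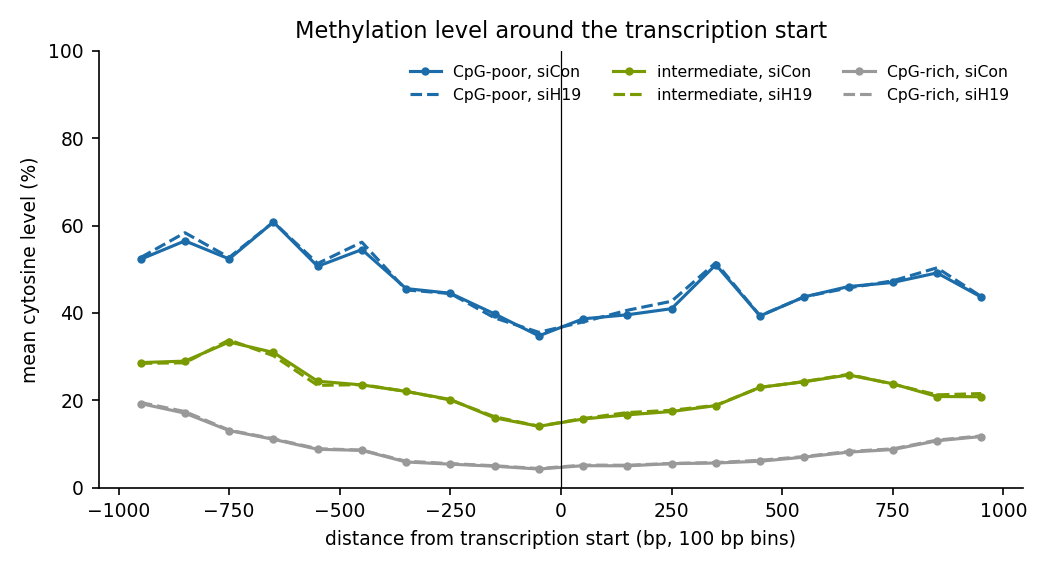
Mean cytosine level in 100 bp bins (y axis, percent) against the distance of the bin from the transcription start (x axis, bp, negative upstream) for the 3 promoter classes, with siCon solid and siH19 dashed. The CpG-poor line falls to 34.8% in the bin just upstream of the start in siCon and is above the other classes in every bin, and the lines of the 2 libraries nearly coincide.

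By place in the gene the means lay closer together. Cytosines upstream of the gene averaged 46.0% in siCon and 46.4% in siH19 (2163 cytosines), those in exons 45.2% and 45.5% (2730) and those in introns 39.4% and 39.9% (1692). Soft-masked repeats held 543 of the cytosines, with means of 45.9% in siCon and 48.0% in siH19, against 44.05% and 44.3% for the other 5963. Repeats were less deeply read, with medians of 13 and 16 reads per cytosine against 24 and 21.

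The TATA box, the core promoter element that positions transcription initiation at many tissue-restricted genes, was searched as the letters TATAA on the gene's strand between 40 and 20 bp upstream of the start. It stood there in 67 members (7.30%), against 9.28% of all CpG-poor starts, 2.91% of intermediate starts, 1.51% of CpG-rich starts and 4.30% of all starts. Members with TATAA averaged 47.7% in siCon and 48.5% in siH19, and members without it 44.6% and 44.9%. The element was present in 9.39% of the 245 members with a level below 20% averaged over both libraries, in 5.33% of the 525 between 20% and 80%, and in 10.8% of the 148 above 80%, so its share was lowest in the middle of the range. In 170 members the gene had another coding transcript whose own start was not CpG-poor. These averaged 43.6% in siCon and 43.9% in siH19, and the 748 genes whose coding starts were all CpG-poor averaged 45.1% and 45.5%. A CpG-rich stretch, here a ratio of at least 0.6 at 50% GC, lay within 2 kb of 77 members, which averaged 52.1% in siCon, and 2 to 5 kb from 122, which averaged 47.1%. The 719 members with none within 5 kb averaged 43.6%.

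The members with the lowest levels were not those of a single tissue. Among promoters with 5 or more cytosines, Orc4, a subunit of the origin recognition complex, the predicted gene Gm14391, and Chrna1, the alpha subunit of the muscle acetylcholine receptor, had no methylated read in either library. Orc4 had 0 of 78 reads in siCon and 0 of 50 in siH19, summed over 10 cytosines, which allows levels of up to 3.85% and 6.00%, and all of its cytosines were at +865 to +1000. A CpG-rich stretch, as defined above, was centred 900 bp from this start, and the gene had another coding start that was not CpG-poor. Whether the cytosines read belong to that stretch was not tested. Gm14391 had 0 of 84 and 0 of 50 reads over 5 intron cytosines at +430 to +492, which allows up to 3.57% and 6.00%. Chrna1 had 0 of 48 and 0 of 168 over 6 cytosines at +21 to +37, which allows up to 6.25% and 1.79%. These limits take the summed reads as independent. Single cytosines had only 7 or 8 reads in siCon and 5 in siH19 in Orc4, and 16 or 17 and 10 in Gm14391. In Chrna1 they had 6 or 10 and 26 or 30. Where the same molecules were read at several cytosines, the true limits are much wider.

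The other 9 of the 12 lowest were above 0% in at least 1 library. Rin1, a Ras effector, was the most deeply read of them at 0.454% in siCon (1129 reads) and 0.0889% in siH19 (1596 reads). Its cytosines lay at +361 to +925, so the start itself was not read. Plaur, the urokinase receptor, was at 0.714% and 0%, from intron cytosines at +110 to +775. Axl, a receptor tyrosine kinase, was at 0.745% and 0.220%, and Ticam1, an adaptor of Toll-like receptors, at 0.690% and 0.675%. Otof was at 0.689% (350 reads) and 0% (267 reads), and its 4 measured upstream cytosines, shown in the sequence above, held 1.43% at most. Akr1b8, an aldo-keto reductase, was at 0.510% and 0.952%, and Plin2, a coat protein of lipid droplets, at 0% and 1.54%, from intron cytosines at +244 to +497. Cela1, a pancreatic elastase, was at 0.216% (414 reads) and 1.28% (797 reads), from cytosines at +680 to +731. Gm20521, a read-through gene that shares its start with Bcl2l2, was at 1.11% and 0.544%. The differences between the libraries in these 12 promoters were below 2 points.

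The upper end was as clear. Gm10135 had 6 cytosines at -117 to -85, of which 5 were at 100% in both libraries and 1 was at 100% in siCon and 94.1% in siH19, so the promoter was at 100% and 99.02%. Prr22 was at 99.1% and 97.9%, and Klk9, a kallikrein-related protease, at 98.9% and 98.0%. The 3 CpGs in capitals in the sequence of Gm10135 are the ones read.

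Skeletal muscle genes were of interest because the cells were myotubes. The muscle list counted contractile, excitation-contraction, synaptic and regulatory genes. Of its 163 autosomal genes 85 had CpG-poor promoters and 25 of these were measured. Their median level was 49.995% in siCon and 51.6% in siH19, near the medians of all members. This median depended on the filters, at 26.4% in siCon with at least 20 reads per cytosine and 23.6% within 500 bp of the start. In siCon 9 of the 25 (36.0%) were below 20%, 11 between and 5 (20%) above 80%, beside 27.0% and 17.1% of all members. In siH19 7 of the 25 were below 20% and 5 above 80%, beside 26.8% and 17.2% of all members. Muscle genes in myotubes thus stood at both ends of the range, as the members in general did. None of the 25 passed the test between the libraries described below.

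The low muscle promoters included structural and synaptic genes. Acta1 was at 11.7% in siCon (10 cytosines, 218 reads) and 11.8% in siH19 (206 reads). Its cytosines at -62 to -56, the pair of CpGs at the right of the printed sequence, read 0% to 12.5% in siCon and 0% to 13.6% in siH19, whereas those at -125 and -124 read 34.4% and 43.8% in siCon and 41.2% and 22.7% in siH19. Hfe2 was at 6.10% and 3.49%, and Myoz1, a calcineurin-binding Z-disc protein, at 8.33% and 8.98%. Chrne, the adult epsilon subunit of the acetylcholine receptor, was at 10.3% and 12.2%, but its 8 cytosines lay at +681 to +733. Lmod3 was at 12.7% and 11.02%, and Musk, the receptor kinase that organises the neuromuscular synapse, at 14.8% and 12.9%. Mybpc3, the cardiac myosin binding protein C, was at 13.5% and 22.5%. These levels were all below the lower quartile of the members except that of Mybpc3 in siH19. With restriction-site cytosines kept, the siCon levels of these 7 genes were higher, from 27.2% (Chrne) to 41.3% (Myoz1), and those of Chrna1 and Ldb3 were 10.4% and 32.3%.

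Ldb3 showed the dip at the start in a single promoter. Its mean was 19.6% in siCon and 21.2% in siH19. The 4 cytosines at -57 to -22, the CpGs printed above, were at 0% to 2.00% in siCon and 0% to 2.99% in siH19, and the 1 cytosine at -959 was at 93.8% and 100%.

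Pygm, the glycogen phosphorylase of muscle, had 16 cytosines and a mean of 48.6% in siCon and 51.6% in siH19. It was at 7.69% and 12.2% in siCon at -38 and -37, at 12.2% to 56.1% from +124 to +129, at 91.7% to 100% from +179 to +226, and again at 14.3% to 37.9% from +845 to +901. The same order of low, high and low was found in siH19, at 5.56% to 14.3%, then 87.5% to 100%, then 8% to 27.3%.

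Between these ends lay Synpo2l (32.4% in siCon and 35.8% in siH19), Cav3, the muscle caveolin (42.1% and 46.2%), Xirp1 (49.995% and 54.7%), Trim63, a ubiquitin ligase of muscle atrophy (55.8% and 48.4%), Asb10 (61.4% and 65.0%), Smyd1 (64.3% and 61.4%), Tnnc2, the fast skeletal troponin C (68.4% and 77.0%), Dupd1 (70.3% and 66.4%), and Mylk2, the skeletal myosin light chain kinase (72.7% and 66.2%). Among these the 2 libraries differed by less than 9 points.

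Several muscle genes were highly methylated over the cytosines that could be read. Tnni2, the fast skeletal troponin I, was at 98.4% in siCon (124 reads) and 92.1% in siH19 (109 reads), including 100% and 93.3% in siCon at +32 and +33. Chrnd, the delta subunit of the acetylcholine receptor, was at 97.2% and 96.2%, but its 4 cytosines lay at +750 to +757 in an intron. Ankrd23 was at 89.4% and 92.1%, over 3 intron cytosines at +60 to +83. Hspb7, a small heat shock protein of muscle, was at 85.2% and 81.8%. Rapsn, which clusters acetylcholine receptors, was at 79.4% and 77.7%, but its 4 cytosines lay at +932 to +955 in an exon. Myog, the myogenin gene that drives terminal muscle differentiation, was at 80.5% and 81.2%. All of its 6 cytosines were in an exon, and they ran from 18.9% in siCon and 30.0% in siH19 at +205 to 100% in both at +340, so the start itself was not read.

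**Figure D3:**
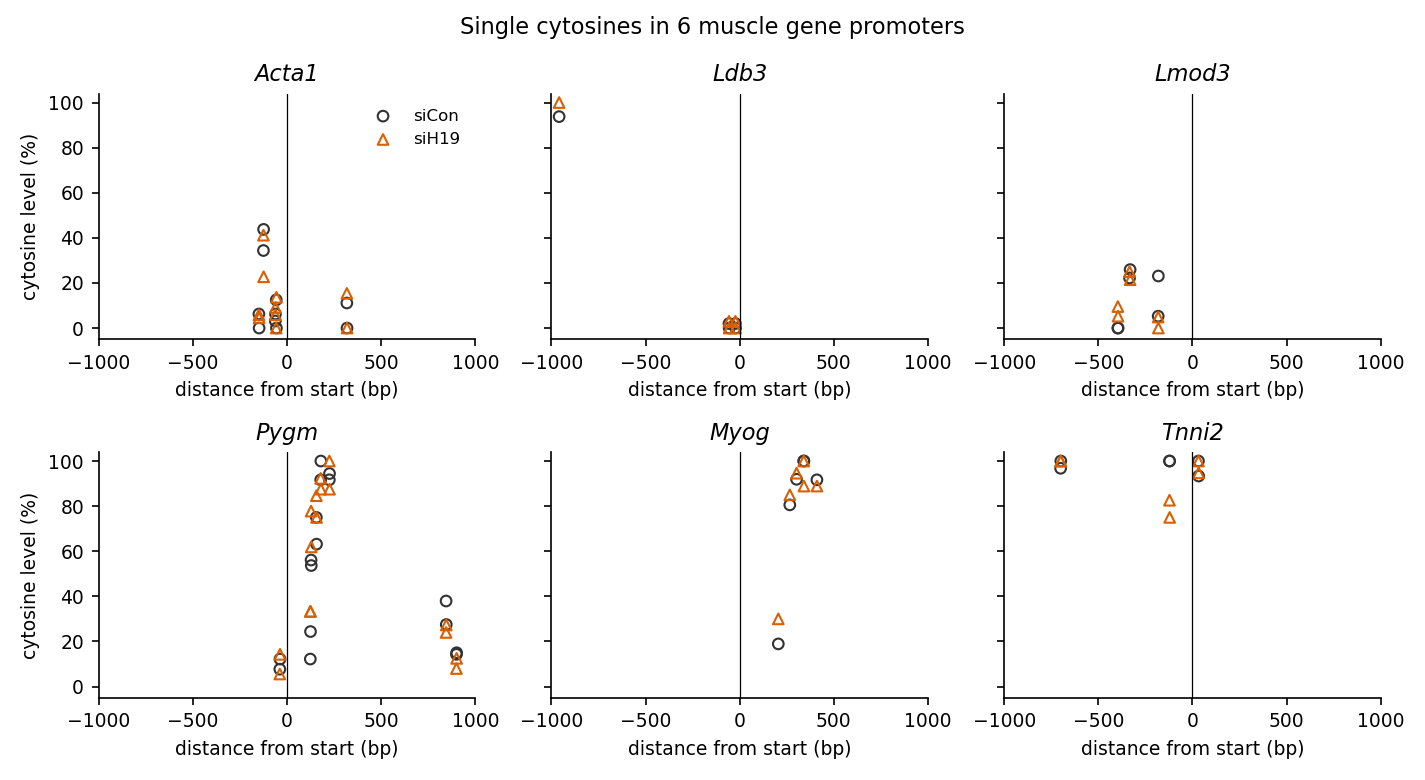
Level of each measured cytosine (y axis, percent) against its distance from the transcription start (x axis, bp) in the promoters of Acta1, Ldb3, Lmod3, Pygm, Myog and Tnni2, with siCon as circles and siH19 as triangles. Ldb3 is at 2.99% or below next to its start and at 93.8% and 100% at -959, Pygm climbs from low to high within its first exon, and Tnni2 is high on both sides of its start.

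The other tissue lists, set by gene symbol, held few measured members and none that passed the test. All 8 members that passed were on no list, although some have immune, odorant receptor or sarcomere roles, as named below. Of 1457 CpG-poor promoters of odorant, vomeronasal, taste and trace amine receptors only 8 could be measured. Their median was 15.4% in siCon and 19.2% in siH19, 4 were below 20% and none above 80% in either library. They ran from Olfr582, read at -857 to -840, to Olfr1513 at 58.3% and 61.5%. Olfr582 had 0 of 46 reads in siCon and 0 of 40 in siH19 (up to 6.52% and 7.5% if the summed reads were independent). Keratin and epidermal genes (23 of 133 measured) had a median of 47.1% in siCon and 49.1% in siH19. Krt78 had no methylated read among 275 in siCon and 97 in siH19, and Krt14, the keratin of basal epidermis, was at 93.5% and 92.9%.

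Immune genes (43 of 303 measured) had a median of 62.7% in siCon and 63.2% in siH19, with 5 below 20% and 11 above 80% in siCon. By the mean of both libraries they ran from Lilra5, a leukocyte receptor, at 5.13% in siCon and 5.71% in siH19, to Ifne, an epithelial interferon, at 95.8% and 99.2%. Of the 43, 30 were higher and 13 lower in siH19, beside 478 higher and 429 lower among all members, with a median difference of 1.74 points for the list and 0.23 for all members.

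Liver and plasma genes (26 of 241) had a median of 43.9% in siCon and 46.2% in siH19 and ran from Cyp4f13, a cytochrome P450 with no methylated read among 177 and 290, to Cyp8b1, the sterol 12-alpha-hydroxylase of bile acid synthesis, at 98.5% and 95.5%. Gut, pancreas and secreted defence genes (24 of 182) had medians of 56.2% and 59.9% and ran from Cela1 to Klk9. Testis and sperm genes (13 of 85) had medians of 44.6% and 42.4% and ran from Adam34, at 1.70% and 2.55%, to Fam71f1, at 97.2% and 94.4%. Of 77 CpG-poor promoters of placental, mammary and pituitary genes only Wap, the whey acidic protein gene of milk, was measured, at 63.9% and 65.3%. The remaining 755 members had medians of 43.4% and 43.3%. These list medians depended on the filters as well. At 20 reads per cytosine the siCon medians were 31.1% for keratin and epidermal, 18.7% for liver and plasma and 21.9% for gut, pancreas and secreted defence genes, and the chemosensory median was 46.7% with restriction-site cytosines kept and 3.05% with 1 cytosine per run of less than 100 bp spacing, an alternative described below.

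**Figure D4:**
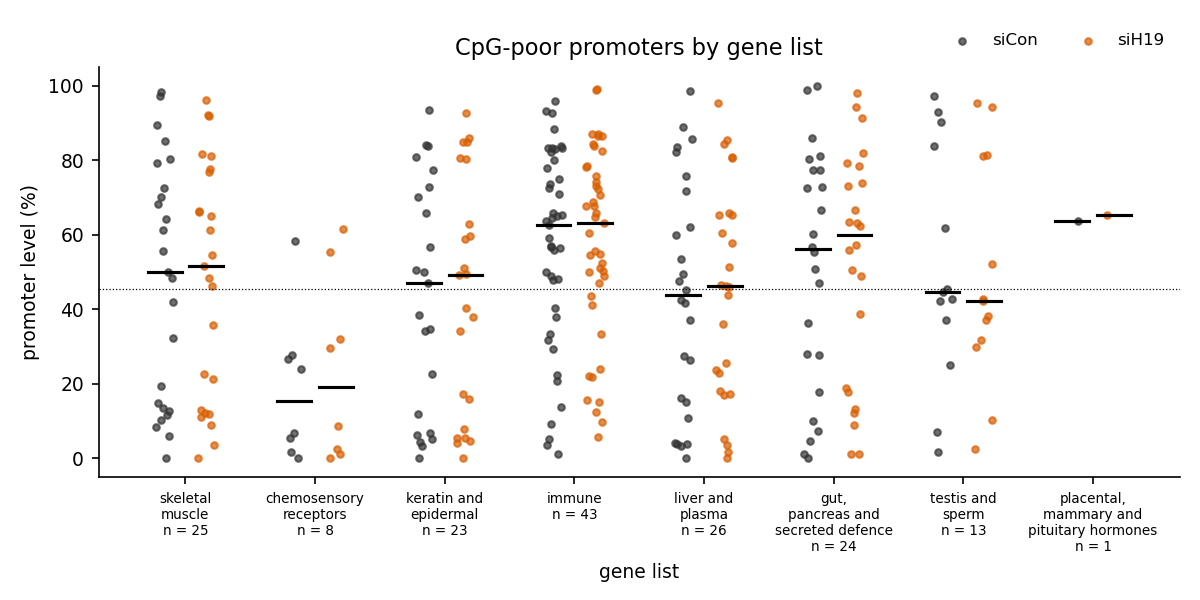
Promoter level (y axis, percent) of each measured member of the 8 gene lists (x axis), siCon in grey and siH19 in orange, with the list's median as a bar and the siCon median of all 918 members (45.4%) as a dotted line. Every list with more than 8 members holds promoters both below 20% and above 80%, and the immune list has its median at 62.7% in siCon.

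The comparison of siH19 with siCon asked whether knockdown of H19 went with another level of methylation at these promoters. As a group they moved little. The difference (siH19 minus siCon) averaged 0.387 points over the 918 members with a median of 0.232 and an SD of 6.46, and 478 promoters were higher, 429 lower and 11 equal. It averaged 0.154 points (SD 4.00) over intermediate and 0.135 points (SD 1.69) over CpG-rich promoters. The mean differences of single chromosomes ran from -0.932 to 2.76 points, above 0 on 11 of 19. The levels of the libraries were correlated across the 918 promoters (r = 0.98 and rho = 0.98, over points that share 2 libraries). Single differences ran from -24.8 points at Tgm7, a transglutaminase, to 29.3 points at Tmem214, a membrane protein, but these rested on 23 and 112 reads and on 26 and 41 reads in siCon and siH19 and did not pass the test (adjusted p = 0.104 and 0.0971, exact stratified test). Differences were widest where the level was in the middle, with an SD of 7.54 points for the 525 members at 20% to 80% against 4.55 for the 245 below and 4.76 for the 148 above, and the counting error of a member's difference had a median of 5.03 points.

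Each promoter was tested with a two-sided exact test of methylated against unmethylated reads that keeps each cytosine as its own stratum, with Benjamini-Hochberg adjustment over the 13762 promoters of all classes. A promoter passed when it differed by at least 10 points and its adjusted p-value was under 0.05. Of the 918 members 8 passed (0.871%), 5 higher and 3 lower in siH19, beside 0.254% of all promoters tested (0.153% higher and 0.102% lower). At an unadjusted p-value under 0.05 the order was the other way round, with 81 members (8.82%) beside 20.1% of all promoters, which held a median of 46 cytosines against 6. Without the minimum difference 11 members passed (1.2%) beside 6.9% of all, and 101 members (11%) beside 1.68% differed by at least 10 points whatever the test. Cytosines on the same reads are not independent in this test. With only the deepest cytosine kept in each run of same-strand cytosines less than 100 bp apart, an alternative chosen after seeing the data, 0 of 917 members passed the exact test beside 0.102% of 13745 promoters, with 66 members at an unadjusted p-value under 0.05. There the 8 promoters kept their direction with adjusted p-values from 0.182 to 0.850 (exact stratified test). The other alternatives gave 1 to 14 calls. The 1 call came at a minimum of 20 points (0.109% of members, beside 0.0363% of all promoters). The 14 came with Fisher's test on summed reads (1.53%, beside 0.385%).

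**Figure D5:**
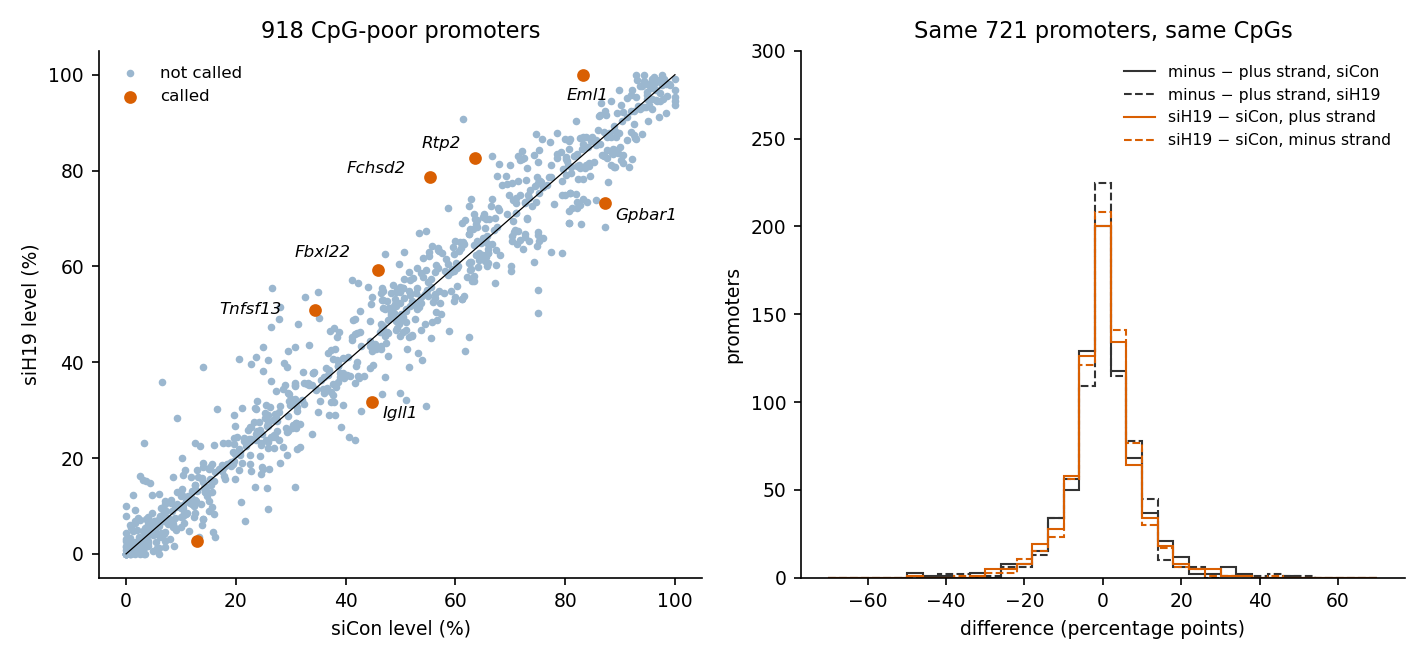
Left, the level of each of 918 CpG-poor promoters in siH19 (y axis, percent) against siCon (x axis, percent), with the 8 that passed the test in orange, 7 of them labelled, and the line of equality. Right, the number of promoters (y axis) by difference in percentage points (x axis) for the 721 promoters with at least 2 CpGs read on both strands. Differences are between strands within a library (grey) and between libraries on a strand (orange). The 4 distributions lie on top of each other, with SDs from 8.15 to 9.86 points.

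Of the promoters that were higher in siH19, Rtp2 (chr16:23931394-23933394) went from 63.6% to 82.6%, higher by 18.96 points (counting SE 6.25, adjusted p = 0.0252, exact stratified test) over 7 cytosines with 138 and 105 reads. These cytosines lay in an intron at +583 to +735, the CpGs printed above, and 6 of the 7 were higher in siH19. The largest steps were at +735, from 50% to 89.5%, and +724, from 50% to 84.2%, while +654 went from 91.7% to 66.7%. The cytosines at +735 and +724 each had 16 reads in siCon and 19 in siH19 and may share them. Fbxl22 (chr9:66513593-66515593), which encodes an F-box protein of the sarcomere, went from 45.9% to 59.3%, higher by 13.4 points (counting SE 4.51, adjusted p = 0.0460, exact stratified test) over 10 exonic cytosines at +139 to +266. Of its cytosines 9 of 10 were higher in siH19, and the difference was 10.8 points on the plus strand and 16.1 on the minus strand. Neighbouring cytosines had equal read numbers, such as 33 in siCon at +231, +236 and +266. In both promoters the cytosines are therefore not separate observations.

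Gpbar1 (chr1:74277550-74279550), the bile acid receptor, was lower in siH19, going from 87.2% to 73.2% with a difference of -14.0 points (counting SE 5.16, adjusted p = 0.0237, exact stratified test) over 6 cytosines. The change was carried by the CpG at -560, whose cytosines went from 49.1% to 33.6% and from 85.7% to 34.6%, while the 4 cytosines from +182 to +375 were between 85.7% and 100% in both libraries. With restriction-site cytosines kept, none of these 3 promoters passed the exact stratified test: the difference of Gpbar1 was -3.80 points (adjusted p = 0.137), that of Rtp2 10.4 points (adjusted p = 0.150) and that of Fbxl22 7.95 points (adjusted p = 0.157). Within 500 bp of the start that of Gpbar1 was -4.38 points (adjusted p = 0.943, exact stratified test).

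The other 5 promoters that passed had only 3 or 4 cytosines, and 4 of them are named here after their values were seen. Fchsd2, a regulator of membrane trafficking, went from 55.4% to 78.6% over 3 cytosines of the minus strand, with 38 and 65 reads. The cytosines at -566 and -549 went from 62.5% and 75% to 100%, and that at -427 from 28.6% to 35.7%. With soft-masked repeat cytosines left out, 6 of 823 members passed, beside 0.25% of 13591 promoters. Eml1, a microtubule-associated protein, went from 83.3% to 100%, entirely through 1 cytosine that went from 33.3% to 100%. That cytosine, at -813, had 2 methylated of 6 reads in siCon and 22 of 22 in siH19. Its partner on the other strand had 8 of 8 and 12 of 12. Tnfsf13, the cytokine APRIL, went from 34.4% to 50.9%. Igll1, a component of the pre-B-cell receptor, went from 44.9% to 31.8% at +318 to +321. The adjusted p-values of these 4 ran from 0.0185 to 0.0483 in the exact stratified test. With restriction-site cytosines kept, the differences of Fchsd2, Tnfsf13 and Igll1 were 11.6, 7.83 and -4.83 points and did not pass, whereas Eml1 still passed. In that setting 9 of 1819 members passed (0.495%), beside 0.133% of 14993 promoters.

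Other members came close without passing. Nutm1, a gene of the male germ line, was at 26.3% in siCon and 47.4% in siH19 (adjusted p = 0.0540, exact stratified test), and Gm39566 at 31.3% and 47.9% (adjusted p = 0.0627, exact stratified test). Spata46, a spermatid gene, was at 61.8% and 42.4% (adjusted p = 0.0878, exact stratified test). Tmem249, Capn12 and Gm11733 had adjusted p-values of 0.0044, 0.0115 and 0.0260 in the exact stratified test, with differences of 3.61, 6.46 and 7.53 points, below the minimum of 10.

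The 2 strands of a CpG give a measure of spread within a library, since maintenance methylation normally marks both. There were 721 members with at least 2 CpGs read on both strands (2664 CpGs). In these, the level on the minus strand minus that on the plus strand had an SD of 9.86 points in siCon and 9.12 in siH19. Over the same CpGs the libraries differed with an SD of 8.76 points on the plus strand and 8.15 on the minus strand, so the spread between libraries was no wider than that between strands. The same exact test, adjusted within each comparison, called 10 and 12 promoters between strands and 2 and 1 between libraries. The difference between libraries on the plus strand did not follow that on the minus strand (r = 0.00155 over 721 promoters), and both strands moved the same way in 353 of 721 (49.0%).

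Single cytosines gave the same picture. A cytosine was counted as strongly changed when it differed by at least 33 points with a Fisher's exact p-value under 0.05, unadjusted. This held for 101 of 6506 cytosines of the members (1.55%), 53 higher and 48 lower in siH19, in 90 promoters, beside 0.957% of the 1795680 cytosines compared on the autosomes (0.501% higher and 0.456% lower). After adjustment over all of those cytosines none of the members' cytosines passed, beside 0.00629% of all. Of the 101, 82 had a measured partner on the other strand, and that partner moved the same way in 44 (53.7%, exact 95% binomial interval 42.3% to 64.7%).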

How the data were processed

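CpG methylation was measured in 2 reduced representation bisulfite libraries of mouse myotubes, siCon and siH19, with groups taken from the sample labels. Read alignment by the authors used Bismark in its non-directional setting; they trimmed filled-in nucleotides at methylation calling and took a level as C over C plus T reads; submitters' notes name bcl2fastq 1.8.4 and mm10. The deposited files give a text entry of another kind than a plain number (methylated reads, total reads, rounded percentage) per cytosine and strand, used here unnormalized, and a deposited score, which matched those counts in 100% of entries. All 4481806 autosomal cytosines in both libraries fell on GRCm38 CpGs.

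Cytosines with at least 5 reads in both libraries and outside CCGG and TCGA were kept, with strands apart, and promoters with at least 3 of them within 1 kb of the gene start. Site cytosines were left out by the rule that defines the members. Starts with undetermined bases (19) were left out. The observed to expected ratio used 500 bp windows every 50 bp. The computations were levels, a stratified exact test, Fisher's exact tests and an exact binomial interval. For a count of 0 the upper limit was approximated as 3 divided by the summed reads. Python 3.11.15 with numpy 2.4.6, scipy 1.17.1 and pandas 2.3.3 was used, and the computations were tested on simulated data. The values of 1 promoter that passed the test are not reported here. The members and gene lists were chosen with earlier results of these data known. Named promoters were up to 8 per direction by difference with at least 5 cytosines (filled up by p-value where fewer passed), the 12 lowest and 3 highest levels, every measured muscle gene, and the lowest and highest member of the other lists.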

Additional observations from a re-analysis of the deposited data

How the results depend on the processing

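The mean siCon level of 44.8% came to 43.4% at 10 reads, 37.0% at 20 reads, 56.2% with restriction-site cytosines kept, 46.0% with strands summed, 44.4% without soft-masked cytosines, 44.2% with another formula for expected CpG, 41.8% within 500 bp of the start, 45.1% where every coding start was CpG-poor and 43.95% with 1 cytosine per 100 bp run, which was added after the data had been seen. The share below 20% (27.0%) came to 36.2% at 20 reads, 33% within 500 bp and 1.59% with site cytosines kept. The 1495 site cytosines of the 231 members below 20% in both libraries had a mean siCon level of 53.5%, and the cause was not tested. The near minus far difference of -10.7 points came to -11.6 at 10 reads, -9.86 at 20, -7.48 with sites, -10.1 without soft-masked cytosines, -11.9 with the other formula, -12.6 for every coding start and -9.82 with 1 cytosine per run, and had no value within 500 bp. The muscle median of 49.995% came to 55.8% at 10 reads and with 1 cytosine per run, 26.4% at 20 reads, 57.7% with sites, 60.1% with strands summed, 23.6% within 500 bp and 54.7% with read-weighted levels.

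The 8 calls (0.871% of members, beside 0.254% of all promoters) became 4 of 395 (1.01%, beside 0.211%) at 20 reads. They became 3 of 566 (0.53%, beside 0.236%) at 5 cytosines per promoter and 4 of 669 (0.598%, beside 0.225%) with strands summed. Within 500 bp they became 5 of 600 (0.833%, beside 0.319%), and for every coding start 5 of 748 (0.668%, beside 0.254%). Fisher's test on summed reads gave 14 of 918 (9 higher, 5 lower, 1.53%, beside 0.385%). There was 1 (0.109%, beside 0.0363%) at 20 points and 0 of 917 (beside 0.102%) with 1 cytosine per run. The 101 strongly changed cytosines became 59 at 10 reads, 13 at 20, 320 with sites, 25 with strands summed, 62 within 500 bp, 47 with 1 cytosine per run and 0 by adjusted p. The number of members measured changed as well, to 725 at 10 reads, 395 at 20, 1819 with sites, 669 with strands summed and 600 within 500 bp. For these settings the shares of the cytosines compared were not computed. Among the named differences only Mfap4 (-4.33 points with read-weighted levels, 2.32 as tested) and Nfic (0.27 points with 1 cytosine per run, -7.95 as tested) reversed. Depth limits single promoters, whose differences had a median counting SE of 5.03 points. No paired analysis was possible because each group had 1 library and the labels carry no replicate numbers; for the same reason no library could be left out.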
